A study of Homo sapiens with 12 samples.

Results

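Neuroblastoma cells carry the glycolipid GD2 and several proteins on their surface that antibodies and engineered T cells are directed against. Described here are 8 genes of this kind: B4GALNT1, ST8SIA1, ST3GAL5 and B3GALNT1, which encode glycolipid-building transferases, and GPC2, L1CAM, NCAM1 and CD276, which encode surface proteins. They are read from every probe set of the array that names exactly 1 gene, where that gene is among the 8. There were 25 such probe sets among 44988 that named 1 gene and 49395 in all, between 1 (ST8SIA1) and 7 (B4GALNT1) per gene, and all 25 were tested without a filter on low values.

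RNA of 12 samples was measured on a 3' expression array, in 4 groups of 3. Kelly and BE(2)-C, a pair of established human neuroblastoma cell lines with amplified MYCN, were each kept for 24 h with 1 µM JQ1 or with its solvent DMSO. JQ1 is a small molecule that displaces BET proteins from acetylated chromatin, and the comparison asks which transcripts differ with it in each line. The labels number the samples 1 to 3 in each group but do not say that they came from separate cultures, and all p-values here rest on the scatter of these samples, part of which can be technical.

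Gangliosides are assembled on ceramide, sugar by sugar, in the Golgi apparatus. ST3GAL5 adds sialic acid to lactosylceramide to give GM3, ST8SIA1 adds a further sialic acid to give GD3, and B4GALNT1 adds N-acetylgalactosamine, which turns GD3 into GD2 and GM3 into GM2. B3GALNT1 works on the separate globo branch, where it makes globoside, and is no step of GD2 synthesis. Only RNA was measured, so the amounts of GD2 and of surface protein are not known here, and in bulk RNA fewer cells with a transcript and less of it per cell cannot be told apart.

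Values are log2 intensity. The probe set of a gene with the greatest average on the 12 arrays is called its brightest, and levels are compared only within a probe set. A change was called at an adjusted p below 0.05 in limma, with adjustment over all 44988 probe sets. The lowest value on any array was 3.12 and the 10th percentile of probe-set means was 4.15, so values near 4 lie at the low end of the scale.

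Averaged over all arrays, the 9 measured adrenergic neuroblastoma markers, among them PHOX2A, HAND2 and TH, all lay above the median level. All 4 haematopoietic markers lay below it by the same average. This comparison was not made within each group. With JQ1, 3 adrenergic markers were lower in Kelly (TH, DBH and ELAVL4), and in BE(2)-C 2 were lower (TH and DBH) and 1 higher (PHOX2A). Under DMSO 3 were lower in BE(2)-C than in Kelly (DBH, ISL1 and GATA3). Their summed intensity was 33771 to 36605 in Kelly with DMSO and 34977 to 35808 with JQ1, and 30065 to 36244 and 37000.4 to 39908 in BE(2)-C. The summed intensity of 9 mesenchymal markers was 7268 to 7557 in Kelly with DMSO and 5368 to 6598 with JQ1, and 9031 to 11091 in BE(2)-C with DMSO and 12784 to 13382 with JQ1. Of these 9, 4 lay above the median, and VIM and PDGFRB were lower with JQ1 in Kelly. None of the 9 was called with JQ1 in BE(2)-C (median change -0.03). Between the lines under DMSO 2 were higher and 2 lower in BE(2)-C (median 0.06), and a sum of intensities is weighted to its brightest genes. Over all genes by their brightest probe set 5.52% were called with JQ1 in Kelly, 3.77% in BE(2)-C and 14.2% between the lines. Of 4 epithelial and 3 Schwann cell markers 1 each lay above the median, and the epithelial sum was 151 to 244 in Kelly with DMSO and 225 to 458 with JQ1. The part of these shifts in the results was not tested. Arrays of the same group correlated at 0.952 to 0.995 and arrays of different lines at 0.878 to 0.955.

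Arrays also differed in how bright the hybridization controls were, which are non-human control RNAs added for the hybridization. The mean log2 signal of these controls was 11.90 ± 1.29 in Kelly with DMSO and 12.94 ± 0.69 with JQ1 (SD, n = 3), and 11.20 ± 1.54 and 11.41 ± 1.20 in BE(2)-C. Kelly DMSO array 3, Kelly JQ1 array 3 and BE(2)-C DMSO array 1 were the 3 highest arrays. Results that this signal touches are given with it as a covariate or without those 3 arrays.

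Most of the 25 probe sets were not called with JQ1. In Kelly, 2 of 25 were higher and 0 lower, L1CAM and GPC2, by 0.89 and 0.62 on the log2 scale; over all probe sets 0.958% were called higher, 3.39% lower and 4.35% either way. In BE(2)-C 0 of 25 were called, against 2.81% of all probe sets. An unadjusted limma p under 0.05 was reached by 5 of 25 in Kelly and 4 of 25 in BE(2)-C. The share of all probe sets under that unadjusted threshold was not counted, so these counts have no background beside them. For the average over both lines 1 of 25, L1CAM, was higher, against 2.47% of all. The difference between the lines' responses was called in 0 of 25, against 0.327% of all. An unadjusted limma p under 0.05 was reached by 6 of 25 for the average and 0 of 25 for the difference, again without a counted share of all probe sets. The median change of the 25 was 0.10 in Kelly and 0.01 in BE(2)-C, beside 0.05 and -0.01 over all probe sets. Without the 3 arrays of highest control signal, 4 of 25 were higher and 1 lower in Kelly, where 20.2% of all probe sets were then called, and 1 was higher and 5 lower in BE(2)-C, where 10.6% were.

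**Figure D1:**
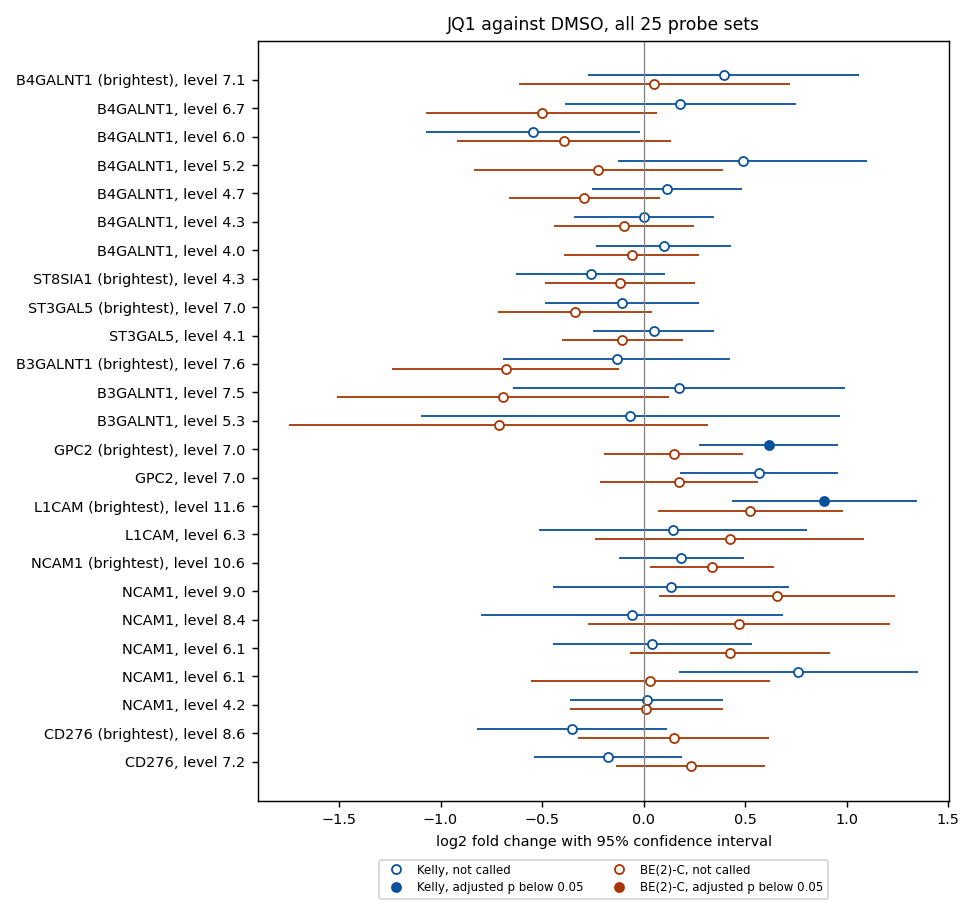
Change with JQ1 against DMSO in each of the 25 probe sets, as log2 fold change (x axis) with its 95% confidence interval, in Kelly (blue) and BE(2)-C (red), by gene and mean level (y axis). Filled points mark an adjusted p below 0.05; these are the brightest probe sets of L1CAM and GPC2 in Kelly, and no BE(2)-C point is filled.

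Within the pathway to GD2, no probe set of the 3 enzymes was called with JQ1 in either line when all 12 arrays were fitted. ST3GAL5, which makes the first ganglioside of the series, read 6.84, 6.74 and 6.74 in Kelly with DMSO and 6.45, 6.63 and 6.93 with JQ1. With BE(2)-C the values were 7.19, 7.67 and 7.58 with DMSO and 7.14, 7.29 and 6.99 with JQ1. The groups overlapped in both lines, and the JQ1 samples of BE(2)-C lay mostly at the lower end. The change was -0.11 (SE 0.17) in Kelly and -0.34 (SE 0.17, adjusted p = 0.511) in BE(2)-C. Without the 3 arrays of highest control signal the BE(2)-C change was -0.48 and passed (adjusted p = 0.0446), and with that signal as a covariate it was -0.32 (adjusted p = 0.238). The other ST3GAL5 probe set had a mean of 4.11, near the low end of the scale.

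ST8SIA1, the GD3 synthase that commits precursor to the disialo branch, was read by 1 probe set, which was dim in all groups. It read 4.19, 4.79 and 4.80 in Kelly with DMSO and 4.23, 4.38 and 4.38 with JQ1. BE(2)-C read 4.02, 4.18 and 4.12 with DMSO and 3.93, 4.00 and 4.04 with JQ1. The groups overlapped in both lines. In Kelly the change was -0.26 (95% interval -0.63 to 0.11), and for BE(2)-C it was -0.12 (-0.48 to 0.25), neither called.

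B4GALNT1, the enzyme that adds the sugar completing GD2, had 7 probe sets, none called. Its brightest read 7.03, 6.54 and 7.61 in Kelly with DMSO and 7.34, 7.55 and 7.48 with JQ1. The BE(2)-C arrays read 7.70, 6.74 and 6.55 with DMSO and 6.91, 6.94 and 7.31 with JQ1. The DMSO samples were the more spread in both lines (SD 0.53 and 0.61, n = 3) and spanned the JQ1 samples. The change was 0.40 (SE 0.31, adjusted p = 0.469) in Kelly and 0.05 (SE 0.31, interval -0.62 to 0.72) in BE(2)-C.

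The 7 B4GALNT1 probe sets did not move together: in Kelly their changes ran from -0.55 to 0.49, and in BE(2)-C from -0.50 to 0.05. Within groups, the brightest followed the hybridization control signal with a correlation of 0.923 over the 12 arrays, which share that signal. With the control signal as a covariate its Kelly change was 0.06 (SE 0.16). Leaving out the 3 arrays brightest in the controls, the Kelly change of the brightest set was 0.66 and passed (adjusted p = 0.0431). Under the same alternative another B4GALNT1 set passed in the opposite direction, lower with JQ1 in Kelly (-0.76, adjusted p = 0.0239, beside -0.55 with all arrays) and in BE(2)-C (-0.65, adjusted p = 0.0453, beside -0.39).

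B3GALNT1, the globoside synthase, had the largest difference between the lines among the 8 genes and was not called with JQ1. Its brightest probe set read 4.26, 4.59 and 4.60 in Kelly with DMSO and 4.14, 4.27 and 4.65 with JQ1. BE(2)-C arrays read 10.39, 11.28 and 11.43 with DMSO and 10.41, 10.54 and 10.10 with JQ1. No Kelly sample came near any BE(2)-C sample, and DMSO and JQ1 overlapped within each line. The BE(2)-C change was -0.68 (SE 0.26, adjusted p = 0.25). DMSO array 1 was the lowest of its group, and without it the change was larger, -1.001, and passed (adjusted p = 0.0240). Without the 3 arrays of highest control signal, of which that array is 1, all 3 B3GALNT1 sets passed as lower in BE(2)-C (-1.001, -1.13 and -1.40, adjusted p = 0.00411, 0.0319 and 0.0126). With the control signal as a covariate it was -0.65 (adjusted p = 0.0675).

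**Figure D2:**
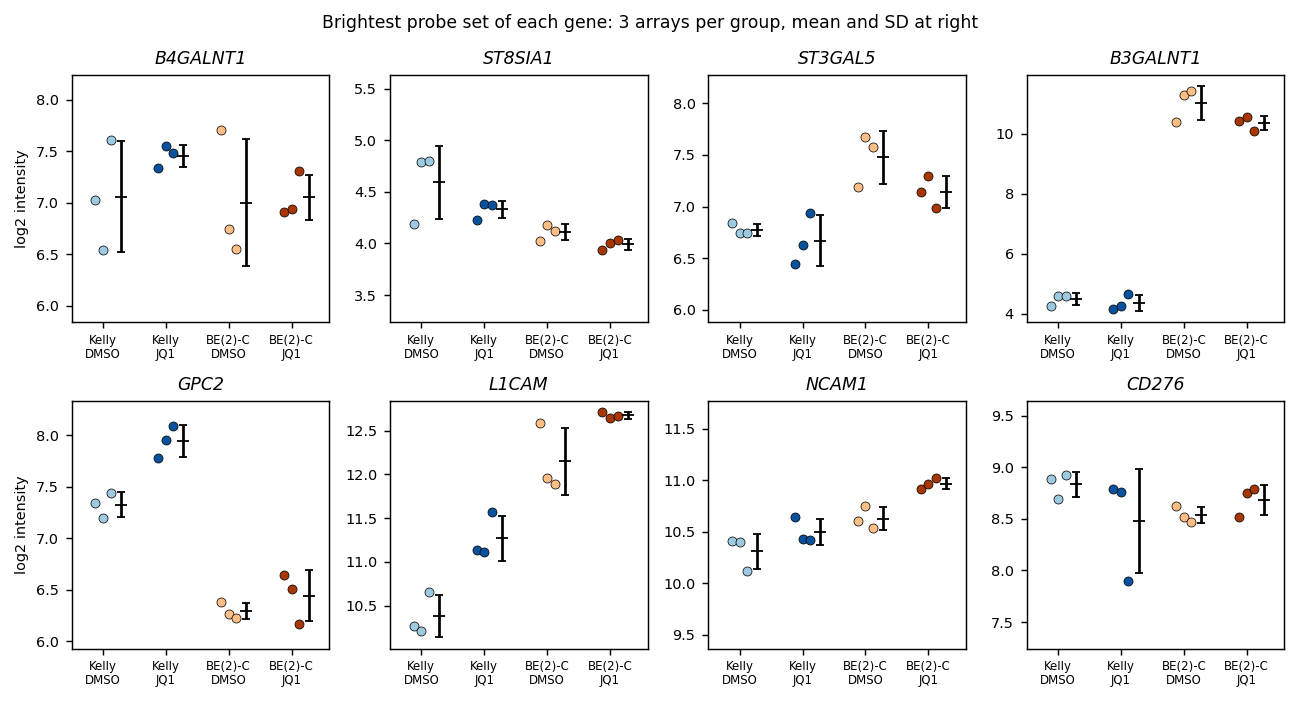
Log2 intensity (y axis) of the brightest probe set of each gene in the 3 arrays of each group, with the mean and SD at the right of the points; each panel has its own y range. The means of L1CAM run from 10.38 in Kelly with DMSO to 12.67 in BE(2)-C with JQ1, and B3GALNT1 lies between 4.14 and 4.65 in Kelly and between 10.10 and 11.43 in BE(2)-C.

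Among the surface proteins, L1CAM had the largest called change. L1CAM is a neural adhesion molecule of the immunoglobulin superfamily that guides axons. Its brightest probe set read 10.27, 10.21 and 10.66 in Kelly with DMSO and 11.14, 11.11 and 11.57 with JQ1, so every JQ1 sample was the higher. It rose by 0.89 (SE 0.21, 1.85-fold, adjusted p = 0.0331).

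In BE(2)-C, L1CAM read 12.59, 11.96 and 11.89 with DMSO and 12.71, 12.64 and 12.67 with JQ1. The JQ1 samples again lay above all DMSO samples, with DMSO array 1 close beneath them. The difference of 0.53 (SE 0.21, adjusted p = 0.285) was not called, and the lines' responses differed by -0.36 (SE 0.30, adjusted p = 0.633). Averaged over the lines L1CAM rose by 0.71 (SE 0.15, adjusted p = 0.0118), higher in 3 of 3 samples of each line, and this call held under all 20 alternatives (largest adjusted p 0.0392).

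The Kelly call of L1CAM was less stable, and was lost in 10 of 21 alternatives. Fitting only the 6 Kelly arrays was among these. In that fit 0 of the 25 probe sets were called with JQ1, against 1.63% of all probe sets. Without DMSO array 1, DMSO array 2, JQ1 array 1, JQ1 array 2 or JQ1 array 3 of Kelly the adjusted p was 0.135, 0.135, 0.0549, 0.0651 and 0.113. Without JQ1 array 1, 2 or 3 of BE(2)-C it was 0.0593, 0.0553 and 0.0527. L1CAM also followed the control signal within groups (r = 0.820 over 12 arrays). With that signal as a covariate the changes were 0.71 in Kelly (adjusted p = 0.00892) and 0.49 in BE(2)-C (adjusted p = 0.0378), and without the 3 arrays of brightest controls 0.88 (adjusted p = 0.00129) and 0.75 (adjusted p = 0.00250). The other L1CAM probe set, with a mean of 6.32, changed by 0.15 in Kelly and 0.42 in BE(2)-C, neither called, and the mean of both sets gave 0.52 in Kelly (adjusted p = 0.123).

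GPC2, a glypican that is anchored in the membrane by a lipid and carries heparan sulfate, was the other gene called. Its brightest probe set read 7.34, 7.20 and 7.44 in Kelly with DMSO and 7.78, 7.95 and 8.09 with JQ1. The groups did not overlap, and GPC2 rose by 0.62 (SE 0.16, 1.53-fold, adjusted p = 0.0490). The other GPC2 probe set gave 0.57 (adjusted p = 0.105), also without overlap, and passed without Kelly DMSO array 3 (0.73, adjusted p = 0.0259) and without the 3 arrays of brightest controls (0.70, adjusted p = 0.0167). With the replicate number as a block, although the labels state no pairing, the adjusted p of the brightest was 0.0599 and the call was lost. With the covariate its change was 0.59 (adjusted p = 0.0284).

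In BE(2)-C, GPC2 read 6.38, 6.27 and 6.23 with DMSO and 6.65, 6.51 and 6.17 with JQ1. These groups overlapped, with JQ1 array 3 the lowest of the 6 samples, and the change was 0.15 (SE 0.16, adjusted p = 0.977). The lines' responses differed by -0.47 (SE 0.22, adjusted p = 0.507). The Kelly call stood just inside the threshold and was lost in 13 of 21 alternatives, among them the fit of only the 6 Kelly arrays. Without DMSO array 1 or 2 or JQ1 array 1, 2 or 3 of Kelly its adjusted p was 0.149, 0.190, 0.0564, 0.125 and 0.133. Without JQ1 array 1 or 2 or DMSO array 2 or 3 of BE(2)-C it was 0.0660, 0.0798, 0.0802 and 0.0675.

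Listed promoter windows of L1CAM and GPC2 are shown because these are the genes that were called with JQ1 in Kelly. Each window runs from 250 bases before to 50 after a start site on the minus strand, 5′ to 3′, from RefSeq (GRCh38.p14), chrX:153875895-153876194 for L1CAM, the first of its 2 listed windows, and chr7:100177332-100177631 for GPC2. Both listed L1CAM windows lie inside the gene, whose upstream end is at chrX:153886173. No listed window covers that end, so its sequence was not searched. Capitals mark the GC box GGGCGG on either strand, a motif of Sp-family factors.
L1CAM: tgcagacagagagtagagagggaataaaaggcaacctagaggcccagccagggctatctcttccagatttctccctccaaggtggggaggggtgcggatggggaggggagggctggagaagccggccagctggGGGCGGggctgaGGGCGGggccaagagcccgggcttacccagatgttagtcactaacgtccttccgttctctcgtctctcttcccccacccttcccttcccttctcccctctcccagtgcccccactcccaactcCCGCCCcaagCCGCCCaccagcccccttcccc
GPC2: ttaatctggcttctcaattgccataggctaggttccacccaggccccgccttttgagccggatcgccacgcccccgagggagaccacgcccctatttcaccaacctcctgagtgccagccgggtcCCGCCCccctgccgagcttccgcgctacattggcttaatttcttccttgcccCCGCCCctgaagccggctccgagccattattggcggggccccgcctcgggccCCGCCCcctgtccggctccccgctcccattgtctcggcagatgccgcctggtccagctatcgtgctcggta

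The L1CAM window held 4 GC boxes and the GPC2 window 3, the latter 125, 73 and 21 bases before the start. A GC box was present in 45% of all 35116 windows of 300 bases. The E-box CACGTG, which MYC and MYCN bind, was searched on both strands and was in no window of the 6 genes listed (ST8SIA1, ST3GAL5, B3GALNT1, GPC2, L1CAM and CD276), and in 7.26% of all windows. The motifs do not overlap in sequence, and a match is a description of these letters. B4GALNT1 and NCAM1 had no entry.

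NCAM1, the neural cell adhesion molecule that carries polysialic acid in embryonic and neuroblastoma cells, was read by 6 probe sets, none called with JQ1 in the fit of all 12 arrays. Its brightest read 10.41, 10.40 and 10.12 in Kelly with DMSO and 10.64, 10.43 and 10.42 with JQ1. In the other line it read 10.60, 10.75 and 10.54 with DMSO and 10.91, 10.96 and 11.02 with JQ1. Every JQ1 sample lay above every DMSO sample of its line, by a small margin in Kelly. The changes were 0.19 (SE 0.14, adjusted p = 0.457) and 0.34 (SE 0.14, adjusted p = 0.324). Over the other 5 sets the change lay between -0.05 and 0.76 in Kelly, and between 0.01 and 0.66 in BE(2)-C. The set that changed by 0.66 in BE(2)-C, the second brightest, passed with the control signal as a covariate (0.71, adjusted p = 0.00886) and not without the 3 arrays (0.42, adjusted p = 0.129). The set that changed by 0.76 in Kelly passed without JQ1 array 1 (1.06, adjusted p = 0.0394).

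CD276, the immune ligand B7-H3, did not pass in either line. It read 8.88, 8.69 and 8.92 in Kelly with DMSO and 8.79, 8.76 and 7.90 with JQ1. The values in BE(2)-C were 8.63, 8.52 and 8.47 with DMSO and 8.52, 8.75 and 8.79 with JQ1. The groups overlapped, and JQ1 array 3 of Kelly stood below the rest. The changes were -0.35 (interval -0.82 to 0.12) and 0.15 (-0.32 to 0.62), and the second CD276 probe set gave -0.18 and 0.23. Without JQ1 array 3 of Kelly, the Kelly changes of the CD276 sets were -0.06 and -0.05.

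Counted by overlap, JQ1 and DMSO samples separated in 5 of 25 probe sets in Kelly (4 higher with JQ1, 1 lower) and in 6 of 25 in BE(2)-C (4 higher, 2 lower). Over all probe sets 21.7% and 19.2% separated. Of the 8 brightest probe sets, those of L1CAM and NCAM1 separated in both lines and that of GPC2 in Kelly.

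Several of the 8 genes differed between the lines without JQ1. Under DMSO, 7 of 25 probe sets were higher and 2 lower in BE(2)-C than in Kelly, beside 6.26% and 6% of all probe sets. The higher ones were the 3 of B3GALNT1, 2 of NCAM1 and the brightest of L1CAM and ST3GAL5; the lower ones were both of GPC2. The samples of the lines did not overlap in 15 of 25 (10 higher in BE(2)-C, 5 lower), beside 23.5% of all probe sets.

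B3GALNT1 was 4.49 ± 0.20 in Kelly and 11.03 ± 0.56 in BE(2)-C (SD, n = 3), a difference of 6.55 (SE 0.26, 93.6-fold, adjusted p = 1.75e-08). Its other probe sets differed by 5.29 and 3.16, both called. The Kelly values lie at the low end of the scale, where the signal over background was not estimated, so the size of the fold is uncertain while the direction was the same in all 3 probe sets. ST3GAL5 was 6.77 ± 0.06 in Kelly and 7.48 ± 0.26 in BE(2)-C, higher by 0.70 (SE 0.17, adjusted p = 0.0189). That ST3GAL5 call was lost without Kelly DMSO array 2 (adjusted p = 0.0536), BE(2)-C DMSO array 2 (0.0955) or BE(2)-C DMSO array 3 (0.0744), and the mean of both ST3GAL5 sets gave 0.35 (0.0709). Fitting only the 6 DMSO arrays also lost it.

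The last steps to GD2 showed no called difference between the lines with all 12 arrays. ST8SIA1 was 4.59 ± 0.35 in Kelly and 4.11 ± 0.08 in BE(2)-C, a difference of -0.48 (SE 0.17, adjusted p = 0.0929), and every BE(2)-C sample was the lower. The ST8SIA1 difference passed without Kelly DMSO array 1 (-0.69, adjusted p = 0.0143) and with the control signal as a covariate (-0.48, adjusted p = 0.0463), and was -0.34 without the 3 arrays of highest control signal (adjusted p = 0.270). For B4GALNT1, with SDs of 0.53 and 0.61, the lines differed by -0.06 (interval -0.73 to 0.61). A dimmer B4GALNT1 set, 0.44 higher in BE(2)-C (adjusted p = 0.133), passed with the covariate (0.50, adjusted p = 0.0237) and after quantile normalization (0.48, adjusted p = 0.0460).

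**Figure D3:**
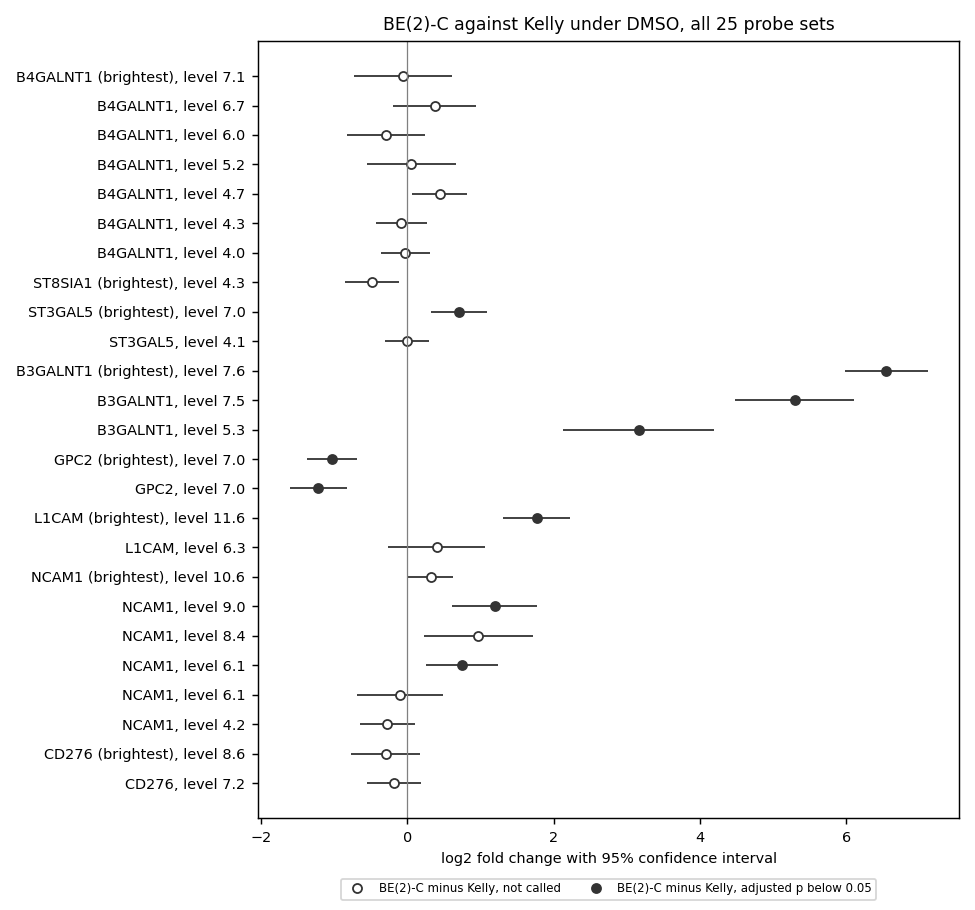
Difference of BE(2)-C from Kelly under DMSO in each of the 25 probe sets, as log2 fold change (x axis) with its 95% confidence interval, by gene and mean level (y axis); filled points mark an adjusted p below 0.05. The 3 probe sets of B3GALNT1 stand farthest to the right, from 3.16 to 6.55, and both GPC2 sets are left of 0.

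Among the surface proteins, L1CAM was higher in BE(2)-C and GPC2 was higher in Kelly. L1CAM was 10.38 ± 0.24 in Kelly and 12.15 ± 0.38 in BE(2)-C, a difference of 1.77 (SE 0.21, 3.40-fold, adjusted p = 0.000128). GPC2 was 7.32 ± 0.12 in Kelly and 6.29 ± 0.08 in BE(2)-C, a difference of -1.03 (SE 0.16, 2.04-fold lower, adjusted p = 0.000905), and its other probe set gave -1.22 (adjusted p = 0.000659). The other L1CAM probe set was 0.40 higher in BE(2)-C and was not called (SE 0.30, adjusted p = 0.566). The calls of the brightest L1CAM set and of GPC2 held in every alternative run, although the mean of both L1CAM sets gave 1.08.

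NCAM1 and CD276 gave less of a difference. Of the 6 NCAM1 sets, the second brightest was 1.20 higher in BE(2)-C (SE 0.27, adjusted p = 0.0104) and a dimmer set 0.75 higher (SE 0.23, adjusted p = 0.0493), while the brightest differed by 0.32 (SE 0.14, adjusted p = 0.201). The call of the second brightest NCAM1 set was lost without BE(2)-C DMSO array 2 (adjusted p = 0.0516) and when only the 6 DMSO arrays were fitted (0.0864). That of the dimmer set was lost in 12 of 19 alternatives. These 12 include leaving out any DMSO array of Kelly (adjusted p 0.0793 to 0.144), DMSO array 2 or 3 of BE(2)-C (0.186 and 0.175), Kelly JQ1 array 3 (0.0566) or JQ1 array 1, 2 or 3 of BE(2)-C (0.0565 to 0.0696). CD276 differed by -0.30 (SE 0.22, adjusted p = 0.539).

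In order of level, L1CAM ran from Kelly with DMSO through Kelly with JQ1 (11.27 ± 0.26) and BE(2)-C with DMSO to BE(2)-C with JQ1 (12.67 ± 0.04), and no neighbouring groups overlapped. GPC2 ran the other way by line, highest in Kelly with JQ1 (7.94 ± 0.15) and lowest in both BE(2)-C groups, which overlapped. In each group but BE(2)-C with JQ1, the array of highest control signal also had the highest L1CAM value.

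**Figure D4:**
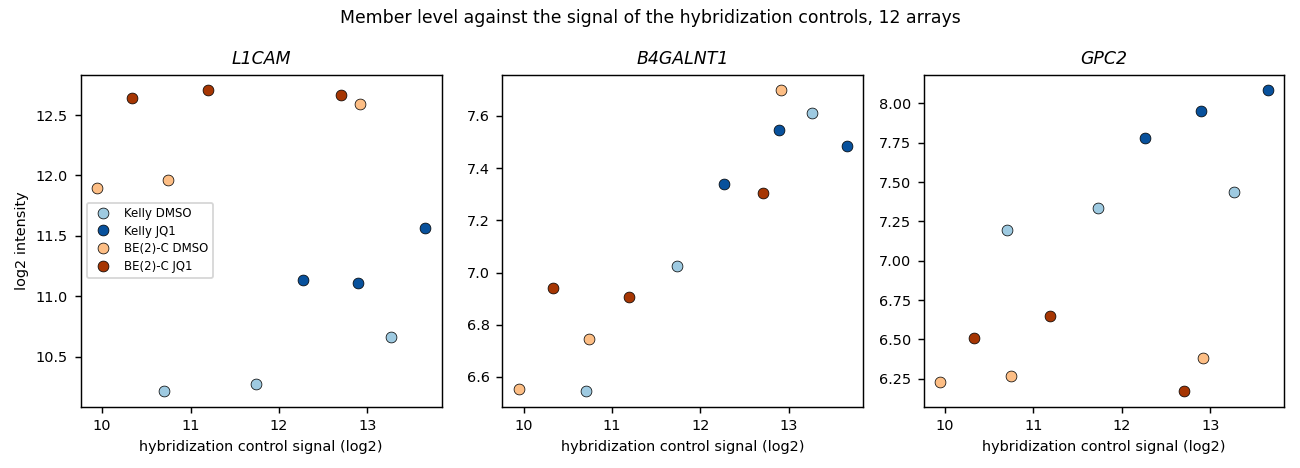
Log2 intensity of the brightest probe set of L1CAM, B4GALNT1 and GPC2 (y axes) against the mean log2 signal of the hybridization controls (x axes) in the 12 arrays, coloured by group. B4GALNT1 rises with the control signal across all groups (within-group r = 0.923). For GPC2 (within-group r = 0.180) the lines stay apart, and DMSO and JQ1 stay apart in Kelly but overlap in the other line.

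Around these 8 genes, the rest of the glycolipid pathway was mostly without a call under JQ1. Of 16 other transferases of ganglioside and related glycolipids, 0 were higher and 1 lower in Kelly, and 0 were called in BE(2)-C; over all genes by their brightest probe set 5.52% and 3.77% were called. The 1 was ST8SIA3, a brain sialyltransferase that can add sialic acid to sialylated acceptors. ST8SIA3 was 7.53 ± 0.54 with DMSO and 5.32 ± 0.36 with JQ1 in Kelly (SD, n = 3), so it fell by 2.21 (SE 0.27, adjusted p = 0.000768); the mean of its probe sets fell by 1.31. The level of ST8SIA3 in BE(2)-C was 8.81 ± 0.33 and 8.19 ± 0.13, a change of -0.63 (adjusted p = 0.354), which without the 3 arrays of highest control signal was -0.81 and passed (0.0221).

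Of 11 genes of ceramide synthesis, 5 of sialic acid supply and 2 polysialyltransferases, 0 passed in either line. The polysialyltransferase ST8SIA2, which extends polysialic acid on NCAM1, changed by -1.20 in Kelly (SE 0.32, adjusted p = 0.0596) and -0.39 in BE(2)-C. The Kelly change of ST8SIA2 passed in 9 of 21 alternatives. Among them were the replicate number as a block (adjusted p = 0.0149) and the control signal as a covariate (-0.88, adjusted p = 0.0126). Leaving out Kelly DMSO array 3 was another (-1.55, adjusted p = 0.00915).

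Of 11 lysosomal and related genes of glycolipid breakdown, 2 rose and 1 fell in Kelly, and 2 rose in BE(2)-C. Over all genes by their brightest probe set 5.52% and 3.77% were called. NEU1, the lysosomal sialidase, rose from 8.98 ± 0.06 to 9.77 ± 0.20 in Kelly (0.79, adjusted p = 0.00608) and from 8.88 ± 0.01 to 9.84 ± 0.07 in BE(2)-C (0.96, adjusted p = 0.00305). ARSA, which removes sulfate from sulfatide, rose by 0.74 (adjusted p = 0.0193) and 0.66 (adjusted p = 0.0443). GALC, which removes galactose from galactosylceramide, changed by -1.59 in Kelly (adjusted p = 0.0426, called) and -1.56 in BE(2)-C (adjusted p = 0.0602); the BE(2)-C change of GALC passed in 9 of 21 alternatives.

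The NEU1 calls held when any 1 array was left out, and those of ARSA and GALC did not. Fitting only the 6 arrays of the line, the Kelly call of NEU1 was lost (adjusted p = 0.0811) and the BE(2)-C call held (0.0135). ARSA was lost in Kelly without DMSO array 1 or 2 or JQ1 array 2 (adjusted p 0.0720 to 0.0823) and with the replicate number as a block (0.0523). The ARSA call in BE(2)-C was lost without DMSO array 1 or 2 or JQ1 array 1 of Kelly, or DMSO array 2 or 3 or any JQ1 array of BE(2)-C (0.0578 to 0.163), and the mean of its probe sets gave 0.15. GALC in Kelly was lost without DMSO array 1 or 2 or any JQ1 array of Kelly, or without DMSO array 2 or any JQ1 array of BE(2)-C (0.0511 to 0.177), and the mean of its probe sets gave -0.19.

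**Figure D5:**
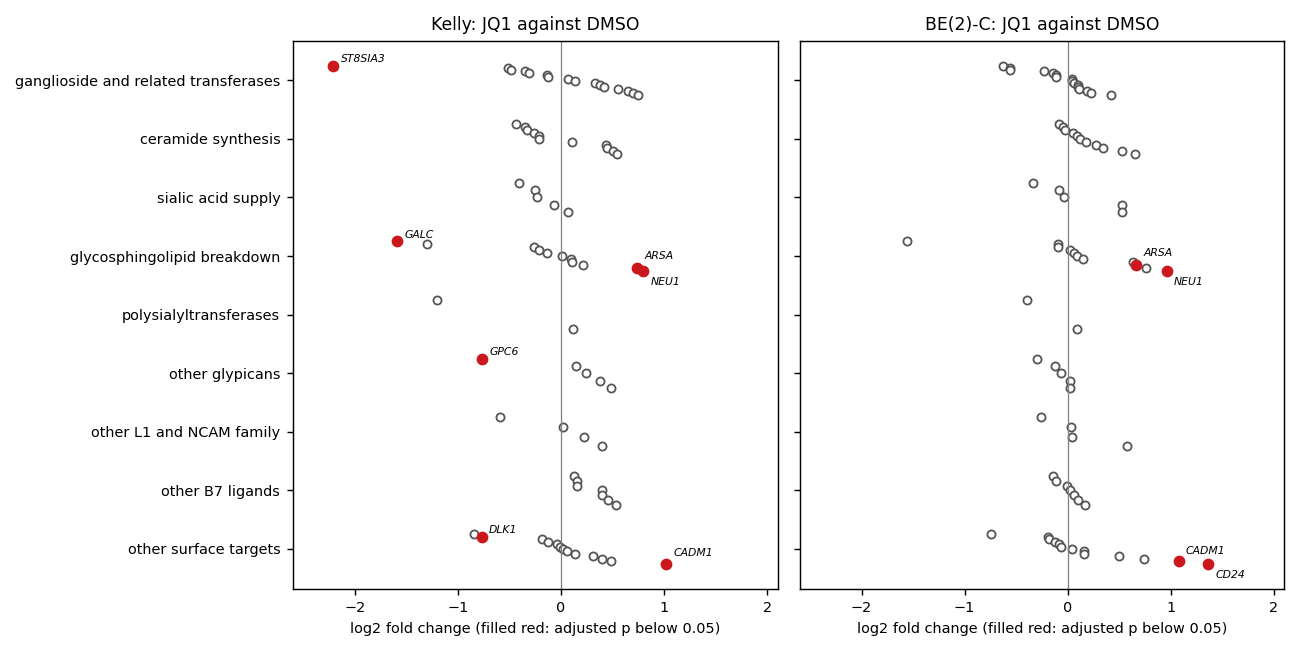
Log2 fold change with JQ1 (x axis) of the brightest probe set of each gene related by pathway or family (y axis), in Kelly (left) and BE(2)-C (right), 1 point per gene. Filled red points, which are named, have an adjusted p below 0.05; NEU1, ARSA and CADM1 are filled in both lines.

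Relatives of the surface proteins gave few calls under JQ1. Of 5 other glypicans 1 was lower in Kelly, GPC6 (-0.77, SE 0.18, adjusted p = 0.0357), and 0 in BE(2)-C, beside 5.52% and 3.77% of all genes called. The GPC6 call was lost without Kelly DMSO array 1 or 2, Kelly JQ1 array 2 or 3, BE(2)-C DMSO array 2 or any BE(2)-C JQ1 array (adjusted p 0.0525 to 0.148), and the mean of its probe sets gave -0.17. Of 4 relatives of L1CAM and NCAM1 and 7 other B7 ligands 0 passed in either line, the largest L1 relative being NFASC in Kelly (-0.59, adjusted p = 0.0846; -0.76 and 0.0335 without Kelly JQ1 array 1). Between the lines under DMSO, where 14.2% of all genes were called, NRCAM was 3.33 higher in BE(2)-C (SE 0.27) and NFASC 1.70 lower (SE 0.17), both called, so members of this family stood on opposite sides. For NFASC the mean of its probe sets gave -0.36 and was not called.

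Of 13 other genes studied as neuroblastoma targets or markers, 1 rose and 1 fell in Kelly and 2 rose in BE(2)-C. Beside them, 5.52% and 3.77% of all genes were called. CADM1, an adhesion molecule of the immunoglobulin superfamily, rose by 1.02 (SE 0.14, adjusted p = 0.00124) in Kelly and 1.08 (SE 0.14, adjusted p = 0.00158) in BE(2)-C. CD24, a heavily glycosylated lipid-anchored protein, rose by 1.36 (SE 0.17, adjusted p = 0.00128) in BE(2)-C and changed by 0.31 (adjusted p = 0.309) in Kelly; the difference between the lines was 1.05 (adjusted p = 0.115), and it passed with the control signal as a covariate (0.94, adjusted p = 0.00969), without the 3 arrays of brightest controls (0.95, 0.0411) and after quantile normalization (0.99, 0.0207). DLK1, a membrane protein related to Notch ligands, fell by 0.77 (SE 0.13, adjusted p = 0.00665) in Kelly. These 4 calls held when any 1 array was left out; fitting only the 6 Kelly arrays the DLK1 call was lost (adjusted p = 0.0843), and the mean of the DLK1 probe sets gave -1.61.

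Genes whose level over the 12 arrays was most like each member's were taken by Pearson correlation among at least 9065 genes above the median level, as a description. For B3GALNT1 these were RELN (r = 0.998), IL13RA2 (0.997) and VIP (0.997). For GPC2 they were NAP1L1 (0.987), SERPINE2 (0.985) and LMO4 (0.979), and for L1CAM they were ALCAM (0.978), LGALS3 (0.975) and PCSK1N (0.973). The points share line, array and control signal, and line alone separates the values of all 3 genes. B4GALNT1, whose groups overlap, was closest to GPC1 (0.976), APOL1 (0.971) and NXPH4 (0.971). NCAM1 was closest to LAMC1 (0.976), ST3GAL5 to C7 (0.946), CD276 to OSER1 (0.938) and ST8SIA1 to DNTTIP2 (0.922).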

How the data were processed

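RNA of 12 samples (2 cell lines, DMSO or JQ1, 3 arrays each, grouped by their titles) was measured on the PrimeView array. The authors made the values with RMA, per the submitters' processing notes, that is a background correction, between-array normalization and summary of probes by probe set, whose version was not given in the sources read. The deposited numbers are linear intensity (array medians 61.4 to 67.3). Because log2 values had been planned for, the deposited values were turned to log2 here, with no offset, floor or further normalization. Arrays give no count depth; their number limits the precision.

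Of 49395 probe sets, 44988 named exactly 1 gene, 1832 named several, 2473 named none and 102 were controls, by the platform annotation with symbols updated through a GRCh38.p14 gene table (99.9% matched); only those naming 1 gene were tested. Fits used limma 3.58.1 (lmFit and eBayes; R 4.3.3) on 4 group means over all 12 arrays, with two-sided p adjusted by Benjamini-Hochberg over all 44988. Comparisons were the JQ1 effect of each line, the average and difference of these, and the lines under DMSO. The fit was also run on simulated data with independent noise for each probe set. That run had no spread shared across an array, so it could not show how such spread affects the calls.

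Every member is given with every probe set. Of the other lists, up to 3 passing genes per direction and line are named, or the largest changes where none passed; for each member, the genes of highest correlation. The members and lists were chosen with earlier results of these data known. The hybridization control signal is the mean log2 of 9 probe sets.

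Same-numbered DMSO and JQ1 samples, by the labels' replicate numbers, had residual correlations across probe sets of 0.420, 0.227 and 0.509 in Kelly. In BE(2)-C they were -0.0354, 0.537 and -0.749. Between the DMSO samples of the lines they were -0.245, 0.620 and -0.715. The labels state no pairing, and the part of the control signal in these correlations was not tested. The fit was kept without a block, and a block was an alternative. Other alternatives were quantile normalization, a trend and robust prior, the brightest or the mean probe set of each gene, only probe sets above the median level, the control signal as a covariate, leaving out each array or the 3 of highest control signal, and fitting only 6 arrays.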

Additional observations from a re-analysis of the deposited data

How the results depend on the processing

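The counts here are probe sets, or genes, past the threshold; the main counts were 1958 in Kelly, 1263 in BE(2)-C, 3388 for the average, 147 for the difference and 5516 for the lines under DMSO. Taking the brightest probe set per gene gave 1178 in Kelly, 2005 for the average and 2735 for the lines, and averaging the sets of a gene gave 1033, 825 in BE(2)-C, 1839 and 2688; these test 18132 genes. Keeping probe sets above the median level gave 71 for the difference. Adjusting for the control signal, the counts were 4116, 5281, 7188, 1029 and 10524, and without the 3 arrays of highest control signal 9109, 4755, 12009, 765 and 9033; the cause was not tested. Fitting 6 arrays gave 732 in Kelly and 3408 for the lines. Leaving out 1 array at a time gave 852 to 3843 in Kelly, 426 to 1804 in BE(2)-C, 2100 to 4523 for the average, 38 to 355 for the difference and 3630 to 6366 for the lines. Quantile normalization gave 2585 in Kelly, 64.3% of them lower, against 78.0% with the values as deposited.

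With the replicate number as a block the counts were 2355, 977, 3514, 119 and 5329; among the 25 probe sets the block ended the GPC2 call in Kelly and changed no other of their calls. Among the pathway genes it ended the ARSA calls in both lines, at adjusted p = 0.0523 and 0.111, and gained ST8SIA2 in Kelly. The labels state no pairing by number, and in BE(2)-C and between the lines the same-numbered residual correlations had mixed signs.

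Over 2360 comparisons of a member probe set with its value under an alternative, 42 lost a call, 46 gained one and 0 called values turned direction. Where an array was left out of a group, its other 2 arrays shared the spread of all groups. Low signal limits ST8SIA1 and, in Kelly, B3GALNT1: no detection call was used here.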

Other observations

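Under DMSO the lines also differed in other genes of glycolipid metabolism and of the cell surface, beside 14.2% of all genes called by their brightest probe set. Of 16 other transferases 3 were higher in BE(2)-C, of 11 genes of ceramide synthesis 3, and of 5 genes of sialic acid supply 1, with 0 lower in these lists. Of 11 genes of glycolipid breakdown 1 was higher and 2 lower, and of 2 polysialyltransferases 0 were higher and 1 lower. NANS, which makes the precursor of sialic acid, was 8.49 ± 0.52 in Kelly and 10.12 ± 0.35 in BE(2)-C (SD, n = 3), a difference of 1.63 (SE 0.26, limma adjusted p = 0.00136). CERT1, which carries ceramide to the Golgi apparatus, was 1.12 higher (adjusted p = 0.00216). ASAH1, the acid ceramidase, was 1.36 higher (adjusted p = 0.00156).

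Of the 13 other neuroblastoma target or marker genes 2 were higher and 3 lower in BE(2)-C. THY1, a small lipid-anchored protein of neurons, was 8.42 ± 0.23 in Kelly and 10.83 ± 0.32 in BE(2)-C, a difference of 2.41 (SE 0.31, adjusted p = 0.000266). CD24 went the other way, 12.39 ± 0.16 in Kelly and 8.78 ± 0.28 in BE(2)-C, a difference of -3.61 (SE 0.17). CADM1 was 1.03 higher in BE(2)-C (SE 0.14), and 1.56 by the mean of its probe sets. The calls of NANS, CERT1, ASAH1, THY1, CD24 and CADM1 held in every alternative run, and these genes were picked for that after their values were seen.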
